A study of Homo sapiens with 18 samples.

Results

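The genes described here encode SLX1 and the human enzymes that resolve Holliday junctions, chosen by symbol: SLX1A, SLX1B, SLX4, MUS81, EME1 and GEN1. They are 6 of the 59421 distinct gene names in the 4 deposited tables. SLX1B entered the list because it was much lower in both MM1S comparisons, so those values are given as a description, without a test. SLX1A is nearly identical to SLX1B and may share its reads, so in MM1S it is treated in the same way. The other 4 genes were tested in every comparison.

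A Holliday junction is the four-way DNA structure that forms when homologous recombination links a pair of DNA molecules. It must be taken apart before the chromosomes can separate. Dissolution by the BLM helicase complex is a route without cutting, whereas resolution cuts the junction with structure-specific nucleases. SLX1 is a small nuclease that works only when bound to SLX4, a scaffold that also carries MUS81-EME1 and XPF-ERCC1. GEN1 cuts junctions on its own. In human cells SLX1 is encoded by both SLX1A and SLX1B, which lie in duplicated segments of chromosome band 16p11.2.

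RNA was sequenced from H929 and MM1S, established lines of multiple myeloma, a cancer of plasma cells. In H929, 3 libraries labelled shRBM39 (short hairpin RNA against the RNA-binding splicing factor RBM39) were set against 3 scramble libraries. In MM1S, 2 shRBM39 libraries were set against 2 scramble libraries, and 3 libraries of cells given indisulam against 3 of cells given the vehicle DMSO. Indisulam is a sulfonamide that leads the DCAF15 ubiquitin ligase to RBM39, so that the protein is degraded. RNA immunoprecipitation (RIP) from MM1S gave 1 library with an antibody to RBM39 and 1 with IgG. All cells carried no other stated alteration, and the labels give no dose, time or hairpin sequence. Nothing says that the libraries came from separate cultures, so p-values measure the spread between these libraries, which may be technical.

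The H929 and RIP tables hold FPKM and the MM1S tables TPM, both of which are scaled to transcript length, so genes can be compared within a library. Each table was normalized separately, and no test was made between tables. The read depth of the MM1S and RIP libraries is unknown. Between the H929 libraries, the spacing of low FPKM values put depth at 0.975 to 1.15 times that of scramble replicate 1. RBM39 averaged 58.5 ± 8.89 TPM in the MM1S shRBM39 libraries (SD, n = 2), against 190.4 ± 20.01 TPM in scramble (SD, n = 2). It averaged 37.5 ± 1.65 FPKM in the H929 libraries labelled shRBM39, against 4.50 ± 0.0631 FPKM in those labelled scramble (SD, n = 3 each), which goes against the labels. Every H929 direction below therefore follows the labels as given. RBM39 mRNA averaged 197.8 ± 42.1 TPM with indisulam and 187.6 ± 8.89 TPM with DMSO (SD, n = 3 each; limma adjusted p = 0.828). Indisulam replicate 3 stood apart: without it, 9350 genes passed the test in that comparison, against 4024 with it. FGFR3, the t(4;14) oncogene of H929, averaged 752.4 FPKM in the H929 libraries labelled shRBM39 and 226.7 FPKM in scramble, and at most 0.32 TPM in every MM1S group. MAF, the t(14;16) oncogene of MM1S, averaged 101.5 TPM or more in every MM1S group. The T cell gene CD3D averaged 0.0465 FPKM in H929 scramble and was listed at 0 in the libraries labelled H929 shRBM39 and in all MM1S libraries. CD3E alone of 4 T cell markers passed the filter, and by the labels it was called lower in each comparison. The summed T cell markers were at 15.7 to 18.5 FPKM in the H929 libraries labelled shRBM39, against 39.3 to 47.1 FPKM in scramble, and at most 5.76 TPM in every MM1S library. In H929 that sum was nearly all CD3E, which averaged 17.0 FPKM in the libraries labelled shRBM39 and 42.9 FPKM in scramble. In H929 the myeloid gene CD68 and the stromal gene ACTA2 were also called lower, at -0.84 and -1.40, each the sole marker of 4 tested for its list. There 8 of 10 plasma cell markers were called higher and 2 lower, beside 24.1% higher and 48.1% lower over all genes. The summed plasma cell markers were at 8002 to 8128 FPKM in the H929 libraries labelled shRBM39, against 4969 to 5105 FPKM in scramble. In the MM1S knockdown CD68 differed by -1.19 (limma adjusted p = 0.0611), and with indisulam by -0.37 (limma adjusted p = 0.11). Of the 10 plasma cell markers 0 were called higher or lower by limma in the MM1S knockdown. At an unadjusted p below 0.05, 1 was higher and 1 lower there. Over all genes 3.97% were called higher and 6.35% lower in that comparison. With indisulam 1 of the 10 was called higher and 4 lower, beside 8.47% higher and 21.5% lower over all genes. The part of these markers in the results was not tested. In bulk RNA, fewer cells of a type and less RNA per cell cannot be told apart.

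The starts of SLX1A and SLX1B, and that of EME1, are shown because the results turn on these genes. The SLX1 pair also share the bases of a start window, but their transcripts were not compared. RefSeq (GRCh38.p14) places the SLX1B start window of 300 bases at chr16:29454283-29454582 on the plus strand. A window of SLX1A at chr16:30193625-30193924, also on the plus strand, has the same base at 300 of 300 positions. The EME1 window is at chr17:50372979-50373278 on the plus strand. Capitals mark matches to the motifs named below, on either strand.
SLX1B and SLX1A: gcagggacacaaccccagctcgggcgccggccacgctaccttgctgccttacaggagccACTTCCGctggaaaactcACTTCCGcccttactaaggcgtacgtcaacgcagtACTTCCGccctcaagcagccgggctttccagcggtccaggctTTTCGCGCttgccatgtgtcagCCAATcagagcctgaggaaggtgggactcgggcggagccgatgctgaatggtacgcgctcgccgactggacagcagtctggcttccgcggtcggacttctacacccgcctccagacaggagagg
EME1: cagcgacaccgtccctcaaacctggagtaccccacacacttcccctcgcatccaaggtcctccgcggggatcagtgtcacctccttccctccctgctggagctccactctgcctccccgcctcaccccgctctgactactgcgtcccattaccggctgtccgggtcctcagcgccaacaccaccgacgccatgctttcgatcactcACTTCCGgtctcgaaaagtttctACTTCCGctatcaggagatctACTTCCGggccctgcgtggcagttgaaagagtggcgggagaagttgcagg

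The letters searched on both strands were CGGAAGT, bound by ETS factors, CCAAT, and the E2F-type motifs TTTCGCGC, TTTGGCGC and TTTCCCGC, together with the CHR motifs TTTGAA and TTCGAA. None of the printed matches overlaps another. The SLX1 window held 3 ETS matches, 1 CCAAT match and 1 E2F match, and the EME1 window held 3 ETS matches. Of 35116 RefSeq promoter windows of the same length, 6.83% held the ETS letters, 34.6% CCAAT, 2.74% an E2F motif and 16.4% a CHR motif. MUS81 held 1 CCAAT match and SLX4 held none of the 4 kinds. GEN1 has 2 overlapping windows, which share 1 ETS match; one also held 1 E2F match, the other 1 CCAAT and 1 CHR match. These matches describe letters only.

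In the scramble and DMSO groups, the order of the 6 genes differed by table. The places of SLX1A and SLX1B may depend on how shared reads were assigned. In the MM1S tables they may also depend on the read-through rows described below. In H929 scramble, MUS81 was highest at 22.2 ± 0.794 FPKM, followed by EME1 at 8.83 ± 1.31 FPKM, GEN1 at 6.83 ± 0.516 FPKM, SLX4 at 3.86 ± 0.281 FPKM, SLX1A at 3.33 ± 0.472 FPKM and SLX1B at 0.730 ± 0.150 FPKM (SD, n = 3). Of the neighbours in that order, the libraries of SLX4 and SLX1A overlapped and the others did not. In MM1S scramble, EME1 at 33.4 ± 8.68 TPM and MUS81 at 33.1 ± 4.10 TPM overlapped (SD, n = 2). SLX1B at 23.3 ± 5.83 TPM, SLX1A at 22.5 ± 0.849 TPM and GEN1 at 21.4 ± 2.38 TPM came next and also overlapped, with SLX4 lowest at 6.06 ± 0.438 TPM. In MM1S DMSO, MUS81 at 60.1 ± 2.69 TPM and SLX1A at 58.4 ± 11.4 TPM overlapped (SD, n = 3). SLX1B followed at 29.0 ± 6.77 TPM, then EME1 at 11.25 ± 0.899 TPM, GEN1 at 5.89 ± 0.380 TPM and SLX4 at 4.21 ± 0.564 TPM, with no overlap between these neighbours. MUS81 was thus first or level with the first in all 3 tables, and SLX4 was the lowest of the 6 in both MM1S tables.

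SLX1B, 1 of the gene pair for the SLX1 nuclease, was at a low level in MM1S after RBM39 knockdown. It had 2.90 and 0.71 TPM in the shRBM39 libraries, against 27.4 and 19.2 TPM in the scramble libraries. The ratio of the means was 0.0775, and the difference was -3.21 on the log2(TPM + 1) scale, which understates the change of low values. With a pseudocount of 0.1 in place of 1 it was -3.88. The groups did not overlap. With indisulam SLX1B had 2.19, 4.39 and 2.06 TPM, against 31.3, 34.4 and 21.4 TPM with DMSO, a ratio of means of 0.0992 and a log2 difference of -2.98. The groups again did not overlap, and the difference was -2.83 without indisulam replicate 3. No test is attached to these values, because they chose the gene.

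SLX1A was lower in the same libraries, by less. It had 13.9 and 12.05 TPM in MM1S shRBM39, against 23.1 and 21.9 TPM in scramble, a log2(TPM + 1) difference of -0.75. With indisulam it had 28.95, 22.0 and 27.1 TPM, against 52.9, 50.8 and 71.55 TPM with DMSO, a log2 difference of -1.13. The groups did not overlap in either comparison, as for 31.9% of all genes in the lower direction after knockdown and 32.3% with indisulam. SLX1B therefore made up 17.3% and 5.56% of the summed SLX1 level in MM1S shRBM39, against 54.2% and 46.6% in scramble. With indisulam its share was 7.03%, 16.6% and 7.07%, against 37.2%, 40.3% and 23.0% with DMSO. The depth behind these shares is unknown, so no interval is given.

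The sum of the pair does not depend on how reads were split between SLX1A and SLX1B. It does depend on reads given to the read-through rows described below, which are not in it. With those rows added the differences were smaller, as given below. The sum of the pair was 16.8 and 12.8 TPM in MM1S shRBM39, against 50.5 and 41.1 TPM in scramble, and the log2 difference was -1.57. With indisulam the sum was 31.1, 26.4 and 29.1 TPM, against 84.2, 85.2 and 93.0 TPM with DMSO, again -1.57 on the log2(TPM + 1) scale. Each shRBM39 or indisulam library thus lay below every scramble or DMSO library of its own comparison.

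**Figure D1:**
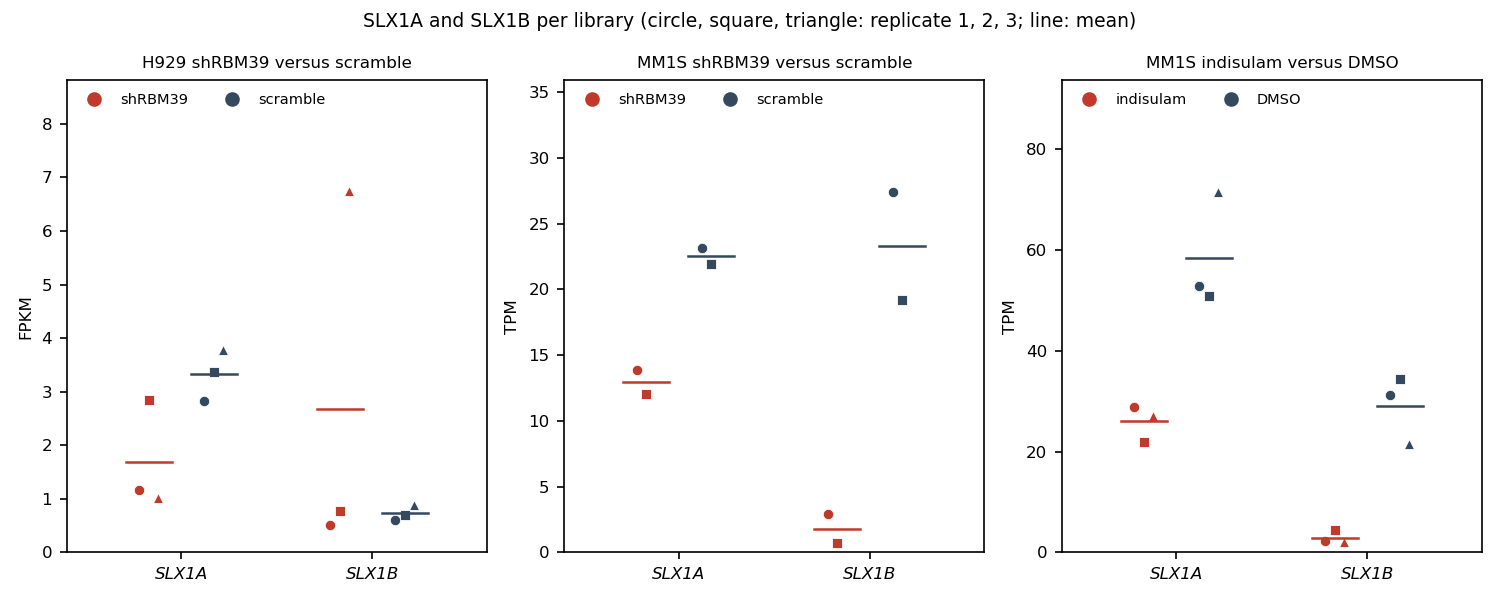
Level of SLX1A and SLX1B in each library, as FPKM in H929 and TPM in MM1S, with the group mean as a line and symbols for replicates 1, 2 and 3. In MM1S the SLX1B points lie between 0.71 and 4.39 TPM in shRBM39 and indisulam libraries and between 19.2 and 34.4 TPM in scramble and DMSO libraries, while in H929 a single library labelled shRBM39 stands at 6.74 FPKM.

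The MM1S tables also list 2 read-through transcripts, SLX1A-SULT1A3 and SLX1B-SULT1A4, which run from an SLX1 gene into the neighbouring sulfotransferase gene. They contain SLX1 exons, so their values can draw on the same reads as those of SLX1B and are not independent of the choice of that gene. SLX1A-SULT1A3 had 20.9 and 11.7 TPM in MM1S shRBM39, against 10.6 and 10.0 TPM in scramble (log2 difference 0.56). With indisulam it had 33.4, 36.3 and 27.0 TPM, against 22.6, 25.9 and 21.6 TPM with DMSO (log2 difference 0.44). Neither pair of groups overlapped, as for 30.5% of all genes in the higher direction after knockdown and 14.9% with indisulam. SLX1B-SULT1A4 had 17.2 and 13.9 TPM in shRBM39, against 12.8 and 16.9 TPM in scramble. It had 7.92, 12.5 and 8.06 TPM with indisulam, against 13.0, 9.22 and 15.7 TPM with DMSO. For this row the groups overlapped in both comparisons.

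Over the 4 rows together, read-through rows held 69.4% and 66.7% of the total in MM1S shRBM39, against 31.7% and 39.6% in scramble. With indisulam they held 57.0%, 64.9% and 54.7%, against 29.7%, 29.2% and 28.6% with DMSO. Adding them to the sum brought its log2 difference to -0.62 in the knockdown and to -0.80 with indisulam. Both totals were still lower in every shRBM39 or indisulam library than in any scramble or DMSO library of the same comparison.

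**Figure D2:**
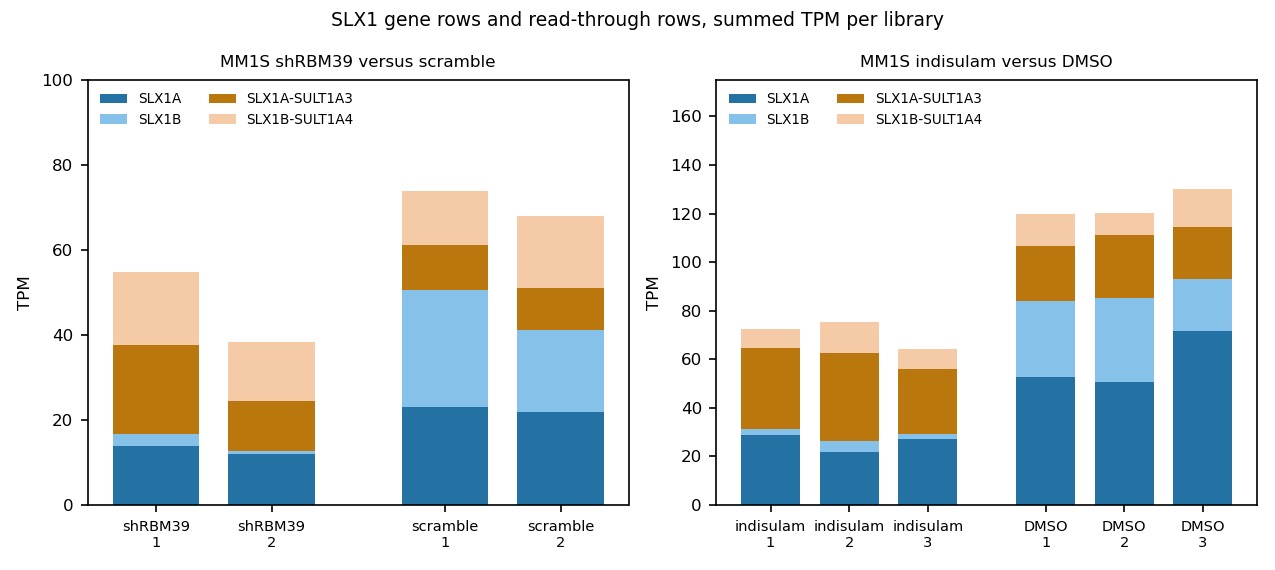
Stacked bars of TPM per MM1S library for SLX1A, SLX1B and the read-through rows SLX1A-SULT1A3 and SLX1B-SULT1A4. Total height is 54.9 and 38.3 TPM in shRBM39 against 73.95 and 68.0 TPM in scramble, and the SLX1B segment is thin in every shRBM39 and indisulam bar.

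In H929, SLX1B was low and uneven. It had 0.520, 0.780 and 6.74 FPKM in the libraries labelled shRBM39, against 0.597, 0.701 and 0.893 FPKM in scramble. A single library, shRBM39 replicate 3, reached 1 FPKM, so the gene did not pass the filter and was not tested. SLX1A had 1.17, 2.85 and 1.02 FPKM in the libraries labelled shRBM39, against 2.83, 3.37 and 3.77 FPKM in scramble. SLX1A fell by 0.75 on the log2(FPKM + 1) scale (SE 0.254, n = 3 each, limma adjusted p = 0.0357), although shRBM39 replicate 2 lay above scramble replicate 1. The call was lost when shRBM39 replicate 1 or 3 or any scramble library was left out (adjusted p 0.0616 to 0.128) and with median scaling (adjusted p = 0.0558).

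Within each H929 library the FPKM values of both SLX1 genes were whole multiples, within 0.03, of a common step. Read as whole reads, SLX1A had 54, 128 and 44 reads and SLX1B 24, 35 and 291 reads in the libraries labelled shRBM39. In scramble SLX1A had 114, 149 and 148 reads and SLX1B 24, 31 and 35 reads. The library with the fewest SLX1A reads thus had the most SLX1B reads. The SLX1 sum was 1.69, 3.63 and 7.76 FPKM in the libraries labelled shRBM39, against 3.43, 4.07 and 4.67 FPKM in scramble. The groups overlapped, and the log2 difference was -0.07 (exact two-sided permutation p = 0.9 with a smallest possible p of 0.1). SLX1B held 30.8%, 21.5% and 86.9% of that sum in the libraries labelled shRBM39, against 17.4%, 17.2% and 19.1% in scramble.

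BOLA2B and SULT1A3 of the same duplicated 16p11.2 block were also uneven in H929, and were picked after their values were seen. BOLA2B, an iron-sulfur cluster assembly gene, had 5.05, 3.32 and 78.5 FPKM in the libraries labelled shRBM39, against 3.01, 3.44 and 2.77 FPKM in scramble. The high library was again shRBM39 replicate 3. SULT1A3, a sulfotransferase gene, had 0.205, 0.0958 and 0.936 FPKM there, against 0.321, 0.292 and 4.08 FPKM in scramble. Here the highest value lay in scramble replicate 3. SULT1A4, NPIPB11, NPIPB12 and NPIPB13, also on the 16p11.2 list, stayed below 1 FPKM in every H929 library and were not tested. SULT1A4 had 0.119 to 0.172 FPKM in the libraries labelled shRBM39, against 0.256 to 0.272 FPKM in scramble. NPIPB11 had 0.291 to 0.314 FPKM against 0.283 to 0.482 FPKM, and NPIPB13 0.0691 to 0.259 FPKM against 0.198 to 0.749 FPKM. CORO1A, an actin regulator gene beside the block that is not duplicated, averaged 334.8 ± 10.0 FPKM in the libraries labelled shRBM39 and 341.0 ± 6.52 FPKM in scramble (SD, n = 3 each; limma adjusted p = 0.555). BOLA2B and CORO1A were the 2 genes on the 16p11.2 list that passed the filter in H929, and neither passed the test.

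In MM1S, 8 genes listed for 16p11.2 were tested apart from the read-through rows. Those rows are left out here because they may share reads with SLX1B. SULT1A3 and SULT1A4 may in turn share reads with those rows. BOLA2 and BOLA2B, SULT1A3 and SULT1A4, and the NPIPB genes are related copies that may share reads with each other. They may not count as separate genes in the counts and medians below. After knockdown 0 rose and 0 fell by limma, also 0 at an unadjusted p below 0.05, and the 8 differences ran from -0.47 for BOLA2 to -0.05 for NPIPB12 on the log2(TPM + 1) scale. Over all genes 6.35% fell and 3.97% rose after knockdown. With indisulam 6 of 8 fell and 0 rose, beside 21.5% lower and 8.47% higher over all genes. CORO1A fell by 1.504 (SE 0.0925, limma adjusted p = 0.00013), with 169.4 ± 16.9 TPM against 481.2 ± 20.5 TPM with DMSO. NPIPB13 fell by 0.78 and SULT1A3 by 1.15 (limma adjusted p 0.00167 and 0.00259). The median of the 8 genes was -1.11 with indisulam, against -0.05 over all genes tested, and -0.21 after knockdown, against -0.00075 over all genes. The difference between the comparisons was not tested.

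The 4 other genes were tested in H929 first. There, 72.2% of 10360 genes tested passed limma at an adjusted p below 0.05, 48.1% lower and 24.1% higher. The median difference of all genes was -0.13 on the log2(FPKM + 1) scale. Of the 6 genes, 5 passed the filter, and 4 of those fell: SLX1A, SLX4, MUS81 and GEN1. With so many genes lower in all, the count is no result about the nucleases themselves.

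SLX4, the scaffold, had 3.08, 2.99 and 3.00 FPKM in the libraries labelled shRBM39, against 3.72, 4.19 and 3.68 FPKM in scramble. It fell by 0.27 (SE 0.0681, n = 3 each, limma adjusted p = 0.0028), or 0.14 below the median of all genes. MUS81, the catalytic subunit, had 19.7, 18.3 and 17.6 FPKM, against 21.6, 22.0 and 23.1 FPKM in scramble. It fell by 0.25 (SE 0.0558, n = 3 each, limma adjusted p = 0.00122). GEN1 had 5.17, 6.15 and 5.41 FPKM, against 6.31, 6.82 and 7.35 FPKM in scramble, and fell by 0.25 (SE 0.0746, n = 3 each, limma adjusted p = 0.00824). The groups did not overlap for any of these genes, as was so for 49.6% of all genes tested in the lower direction and 25.1% in the higher. None of the 3 calls remained with median scaling (adjusted p 0.0851, 0.0759 and 0.160) or quantile normalization (0.123, 0.111 and 0.248). EME1, the non-catalytic partner of MUS81, had 8.21, 7.13 and 7.41 FPKM, against 10.2, 7.61 and 8.65 FPKM in scramble, and the groups overlapped (log2 difference -0.19, SE 0.0884, limma adjusted p = 0.0702).

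In the MM1S knockdown, 0 of all genes passed limma when shRBM39 replicate 2 or either scramble library was left out, and 465 passed without shRBM39 replicate 1. Each of those fits kept 1 library in a group. The lost calls therefore cannot tell reliance on a particular library from the smaller number of libraries. Each knockdown call below rests on 2 libraries a group. Without shRBM39 replicate 1, the genes that fell were 0 of 4 of the BLM complex, 3 of 7 other nucleases, 2 of 11 recombinases, 0 of 9 helicases, 0 of 9 SLX4-bound partners and 9 of 10 cycling-cell genes. With all 4 libraries, EME1 fell most among the 4 tested genes. It had 8.87 and 11.0 TPM in shRBM39, against 39.55 and 27.3 TPM in scramble. EME1 fell by 1.64 on the log2(TPM + 1) scale (SE 0.226, n = 2 each, limma adjusted p = 0.0215), a ratio of means of 0.297. GEN1 had 12.1 and 10.4 TPM, against 19.7 and 23.1 TPM in scramble, and fell by 0.87 (SE 0.166, n = 2 each, limma adjusted p = 0.0393). These 2 of 4 stood beside 10.3% of 14152 genes called, 6.35% lower and 3.97% higher. Both calls were lost in each fit that left out a library (adjusted p 0.0755 to 0.239 for EME1 and 0.0715 to 0.293 for GEN1).

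SLX4 had 3.56 and 3.96 TPM in MM1S shRBM39, against 6.37 and 5.75 TPM in scramble. The groups did not overlap, as for 31.9% of all genes in the lower direction and 30.5% in the higher, but SLX4 did not pass the test (log2 difference -0.57, SE 0.189, limma adjusted p = 0.112). MUS81 had 34.8 and 29.4 TPM, against 36.0 and 30.2 TPM in scramble, and the groups overlapped almost entirely. Its log2 difference was -0.04 (SE 0.160, limma adjusted p = 0.881). MUS81 was the most abundant of the 6 genes in both shRBM39 libraries, with its partner EME1 below it. In scramble EME1 and MUS81 overlapped. EME2, the other partner that can take the place of EME1, had 22.4 and 13.4 TPM in shRBM39, against 9.50 and 10.5 TPM in scramble (log2 difference 0.74, limma adjusted p = 0.125).

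With indisulam, EME1 again fell most. It had 4.12, 2.15 and 1.05 TPM, against 11.7, 10.2 and 11.8 TPM with DMSO, and the groups did not overlap, as for 32.3% of all genes in the lower direction and 14.9% in the higher. EME1 fell by 1.93 (SE 0.324, n = 3 each, limma adjusted p = 0.005), and fell by 1.61 without indisulam replicate 3 (adjusted p = 0.000581). This call was kept in each alternative fit tried. MUS81 had 48.0, 43.5 and 28.6 TPM, against 61.3, 62.0 and 57.0 TPM with DMSO. It fell by 0.61 (SE 0.190, n = 3 each, limma adjusted p = 0.0493), with the lowest value in indisulam replicate 3; without that library it fell by 0.39 (adjusted p = 0.00279). These 2 of 4 stood beside 29.9% of 13445 genes called, 21.5% lower and 8.47% higher. The MUS81 call was lost without indisulam replicate 2 or any DMSO library (adjusted p 0.0822 to 0.155).

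GEN1 had 8.13, 6.58 and 3.39 TPM with indisulam, against 5.90, 5.50 and 6.26 TPM with DMSO. Indisulam replicates 1 and 2 lay above all DMSO libraries and replicate 3 below them. Its log2 difference was -0.03 (SE 0.280, limma adjusted p = 0.941). Leaving out indisulam replicate 3 gave 0.27 (adjusted p = 0.0756). SLX4 had 3.58, 3.70 and 1.73 TPM, against 4.71, 3.60 and 4.33 TPM with DMSO, and the groups overlapped (log2 difference -0.42, SE 0.251, limma adjusted p = 0.246). EME2 had 19.7, 21.8 and 10.5 TPM, against 15.6, 15.7 and 17.2 TPM with DMSO (log2 difference 0.04, limma adjusted p = 0.929). Without indisulam replicate 3, EME2 was higher by 0.34 (adjusted p = 0.0101).

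**Figure D3:**
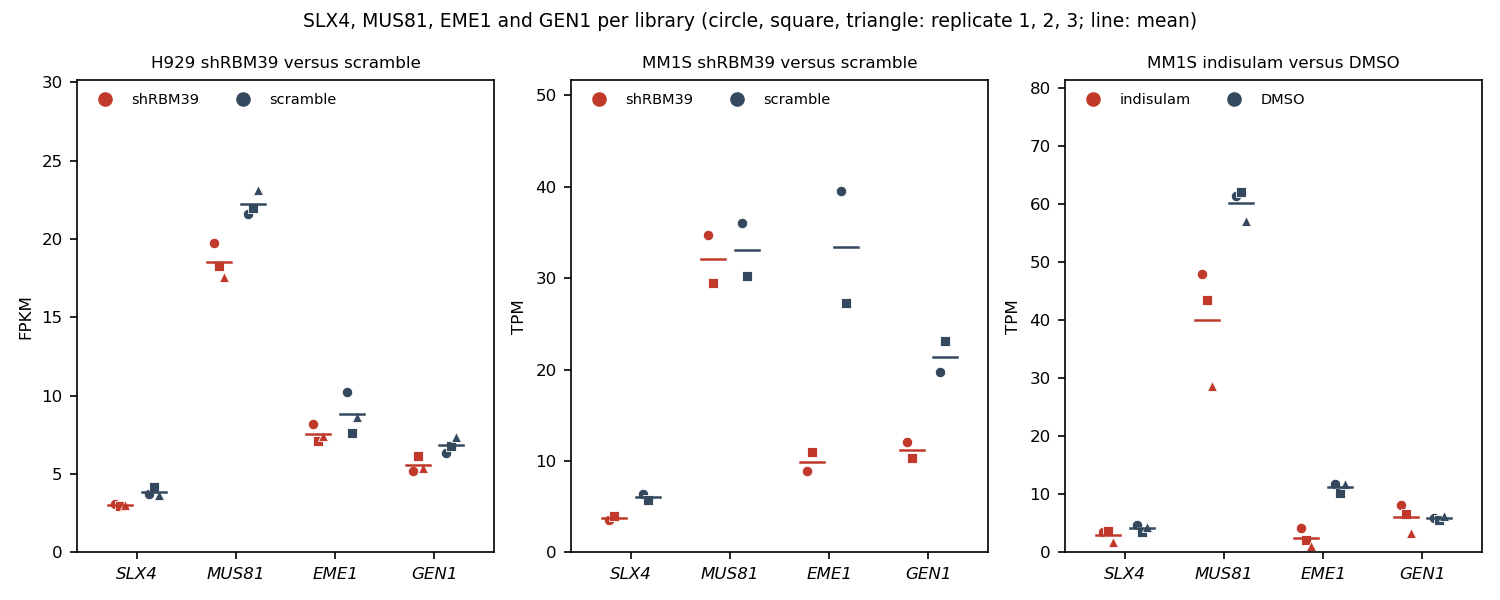
Level of SLX4, MUS81, EME1 and GEN1 in each library, as FPKM in H929 and TPM in MM1S, with group means as lines. EME1 lies between 8.87 and 11.0 TPM in MM1S shRBM39 against 27.3 to 39.55 TPM in scramble, and indisulam replicate 3 (triangle) is the lowest indisulam library for all 4 genes.

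**Figure D4:**
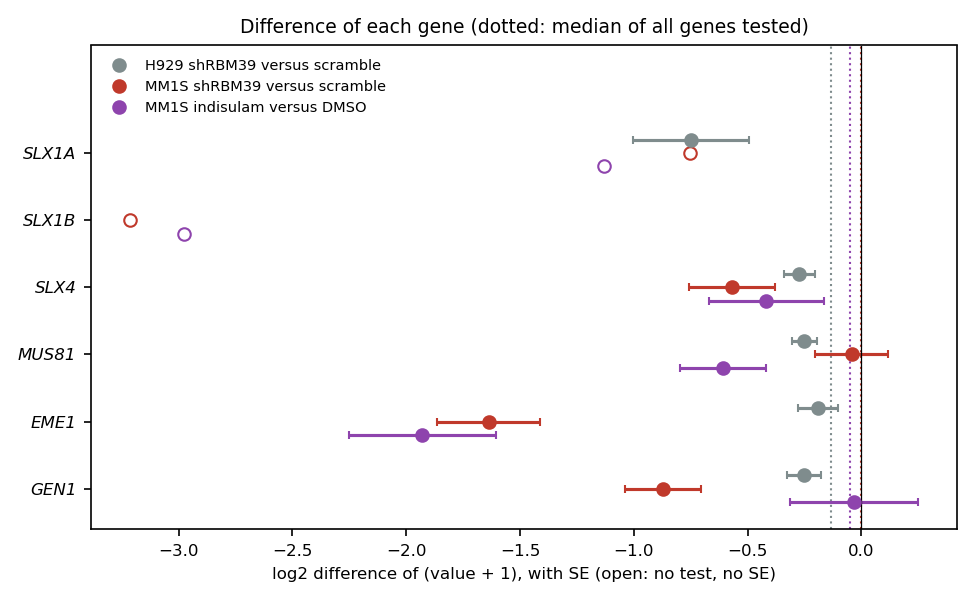
Difference of each gene on the log2(value + 1) scale with its standard error, for the 3 comparisons. Open circles are the MM1S values of SLX1A and SLX1B, which carry no test, SLX1B has no H929 point because it did not pass the filter, and dotted lines mark the median of all genes, at -0.13 in H929, -0.00075 in the MM1S knockdown and -0.05 with indisulam.

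Recombination genes are known to be expressed mostly in dividing cells. Of 10 cycling-cell genes, among them MKI67 and TOP2A, 10 fell after knockdown in MM1S, beside 6.35% of all genes. The median of the 10 was -1.73. Their summed level was 375.0 to 448.3 TPM in shRBM39, against 1347 to 1402 TPM in scramble. With indisulam 7 of 10 fell and 0 rose, beside 21.5% lower and 8.47% higher over all genes. The sum with indisulam was 324.1 to 460.6 TPM, against 639.2 to 678.7 TPM with DMSO. In H929, 4 of 10 rose and 3 fell, beside 24.1% higher and 48.1% lower over all genes, and with median scaling 4 rose and 0 fell. The H929 sum was 510.5 to 529.3 FPKM in the libraries labelled shRBM39, against 476.2 to 504.9 FPKM in scramble. The part of these genes in the lower SLX1, EME1 and GEN1 levels was not tested.

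Of the proteins that bind SLX4, 9 were tested after knockdown in MM1S and only TOPBP1, a checkpoint activator, passed, beside 10.3% of all genes. TOPBP1 fell by 0.88 (SE 0.121, limma adjusted p = 0.0215), with 33.8 ± 1.34 TPM in shRBM39 against 63.0 ± 1.39 TPM in scramble (SD, n = 2 each). With indisulam 1 of 9 fell and 0 rose, beside 21.5% lower and 8.47% higher over all genes. Without indisulam replicate 3, 5 of 9 rose and 1 fell, where 9350 of 14238 genes passed in either direction. In H929, 2 of 8 rose and 5 fell, beside 24.1% higher and 48.1% lower over all genes, and with median scaling 3 rose and 4 fell. The telomere protein gene TERF2IP fell by 0.44, TOPBP1 fell by 0.35, and ERCC1, the partner of XPF, rose by 0.42 (limma adjusted p 6.56e-07, 8.99e-05 and 3.01e-05). The medians of the list were -0.29 in H929, -0.07 after MM1S knockdown and 0.04 with indisulam, against -0.13, -0.00075 and -0.05 over all genes tested.

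The BLM complex, which dissolves junctions without cutting, fell in all 4 of its genes after knockdown in MM1S, where 6.35% of all genes were called lower. Of these calls 2 remained without trend and robust or with crossed numbers and 0 with the replicate block. TOP3A, its topoisomerase, had 11.21 ± 0.156 TPM in shRBM39, against 25.4 ± 3.13 TPM in scramble (SD, n = 2 each), and fell by 1.11 (limma adjusted p = 0.0216). The subunit genes RMI2 and RMI1 fell by 1.07 and 0.96 and the helicase gene BLM by 0.88 (limma adjusted p 0.0216, 0.0416 and 0.0458). With indisulam RMI2 fell by 1.96, with 6.93 ± 1.80 TPM against 29.4 ± 1.62 TPM with DMSO (SD, n = 3 each; limma adjusted p = 0.000664). RMI1 fell by 1.29 (limma adjusted p = 0.0136), while BLM and TOP3A differed by -0.56 and -0.23 (limma adjusted p 0.11 and 0.479). In H929 TOP3A rose by 0.32 and RMI2 fell by 0.25 (limma adjusted p 0.000239 and 0.0285), and BLM and RMI1 differed by -0.10 and 0.11 without passing. The RMI2 call was lost with median scaling.

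Other structure-specific nucleases showed 4 of 7 lower and 0 higher after MM1S knockdown, beside 6.35% lower and 3.97% higher over all genes. DNA2, which resects DNA ends, fell by 1.09, the exonuclease gene EXO1 by 1.29 and the flap nuclease gene FEN1 by 1.09 (limma adjusted p 0.0274, 0.0276 and 0.0381). With indisulam 4 of 8 fell and 0 rose, beside 21.5% lower and 8.47% higher over all genes. FEN1 fell by 2.06, with 24.1 ± 3.65 TPM against 103.1 ± 5.31 TPM with DMSO (SD, n = 3 each; limma adjusted p = 0.000138). RBBP8, which encodes the end-resection factor CtIP, fell by 1.37 and EXO1 by 2.03 (limma adjusted p 0.000498 and 0.00307). In H929, 3 of 7 rose and 1 fell, beside 24.1% higher and 48.1% lower over all genes. FEN1 rose by 0.86 and MRE11, a nuclease of break ends, by 0.98, while EEPD1 fell by 0.32 (limma adjusted p 1.32e-09, 5.43e-09 and 0.00152). The medians were 0.09 in H929, -1.03 after MM1S knockdown and -0.75 with indisulam, against -0.13, -0.00075 and -0.05 over all genes tested.

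Recombinases form the junctions by strand invasion. After knockdown in MM1S, 5 of 11 fell and 0 rose, beside 6.35% lower and 3.97% higher over all genes. BRCA1, a recombination mediator gene, fell by 1.02 and RAD54L, a DNA translocase gene, by 0.85 (limma adjusted p 0.0281 and 0.0346). With indisulam 5 of 11 fell and 0 rose, beside 21.5% lower and 8.47% higher over all genes. RAD54L fell by 1.57 and RAD51C, a recombination mediator gene, by 0.996 (limma adjusted p 0.000669 and 0.00149). In H929, 6 of 10 fell by the labels, beside 48.1% of all genes, and 3 fell with median scaling or quantile normalization. The 6 include RAD54L by 0.66 and RAD51C by 0.44 (limma adjusted p 7.06e-07 and 4.6e-05). The list medians were -0.21 in H929, -0.998 after MM1S knockdown and -0.996 with indisulam, against -0.13, -0.00075 and -0.05 over all genes tested.

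Helicases that move or unwind junctions were the last list. After MM1S knockdown 2 of 9 fell, RECQL by 0.99 and HLTF by 1.17 (limma adjusted p 0.0219 and 0.0229), and 0 rose. Over all genes 6.35% fell and 3.97% rose there. With indisulam 0 of 8 passed in either direction by limma (1 at an unadjusted p below 0.05), beside 29.9% of all genes. Without indisulam replicate 3, where 9350 of 14238 genes passed in either direction, 1 of 8 rose. In H929, 2 of 8 rose and 3 fell. Over all genes 24.1% were higher and 48.1% lower, and with median scaling or quantile normalization 3 of the 8 rose and 1 fell. RECQL5 fell by 0.49, HLTF rose by 0.32 and RTEL1 fell by 0.28 (limma adjusted p 3.29e-05, 0.000238 and 0.0037), and the RTEL1 call was lost with both scalings. The list medians were -0.12, -0.0029 and -0.0073 in H929, the MM1S knockdown and the indisulam comparison.

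To see which genes followed SLX1B, each gene of the 10 MM1S expression libraries was centred on the scramble or DMSO mean of its own table. Pearson correlation with SLX1B was then taken over 10726 genes tested in both comparisons. The most alike were WDHD1 (r = 0.992), a replication fork protein gene, TRAIP (0.989), a replisome ubiquitin ligase gene, FAH (0.989), a tyrosine breakdown enzyme gene, HMGA1 (0.985), a chromatin protein gene, and RNASEH2B (0.985), a ribonuclease H2 subunit gene. WDHD1 had 3.63 and 2.87 TPM in shRBM39, against 9.07 and 8.19 TPM in scramble. It had 0.77, 1.18 and 0.60 TPM with indisulam, against 3.58, 3.26 and 2.88 TPM with DMSO. FAH had 17.6 and 15.3 TPM in shRBM39, against 51.9 and 46.9 TPM in scramble. It had 10.6, 14.0 and 9.47 TPM with indisulam, against 31.2, 31.5 and 30.6 TPM with DMSO.

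The likeness is a description over 10 libraries that share 2 contrasts, and 4.82% of the genes reached r of 0.9. EME1 (r = 0.896, rank 569) and SLX1A (0.856, rank 878) came closest among the other 5 nuclease genes. SLX4 (0.751), MUS81 (0.598) and GEN1 (0.478) ranked lower, at 1713, 2783 and 3522.

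RIP asks which RNAs come down with RBM39. SLX1B was picked on the MM1S comparisons and not on the RIP, but the genes were chosen with earlier results of these data known. There is 1 library per antibody, so the ratios have no replicate check and no test. SLX1A had 2.30 FPKM in the RBM39 RIP and 0.224 FPKM in the IgG RIP, a log2 ratio of 1.43 on the log2(FPKM + 1) scale. SLX1B had 7.21 FPKM in the RBM39 RIP and 3.01 FPKM with IgG (log2 ratio 1.03). SLX4 had 7.83 FPKM against 2.63 FPKM with IgG (1.28), EME1 7.47 against 1.72 FPKM (1.64) and GEN1 9.19 against 2.51 FPKM (1.54). MUS81, the most abundant of the 6 in these libraries, was lower in the RBM39 RIP, with 17.0 FPKM against 34.5 FPKM with IgG (-0.98).

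Thus 5 of 6 genes had a log2 ratio of at least 1, as had 22.7% of the 10966 genes that reached 1 FPKM with either antibody, and 23.9% were at -1 or below. SLX1A and SLX1B may share reads here too, so they may not count as separate genes in this number or in the median below. Shares of all genes at or above the ratio were 9.99% for EME1, 11.4% for GEN1, 13.2% for SLX1A, 16.0% for SLX4, 21.7% for SLX1B and 75.7% for MUS81. The median of the 6 was 1.36, against 0.02 over all genes. Among SLX4-bound partners 1 of 9 was at 1 or more, SLX4IP at 2.32, and 3 were at -1 or less. Recombinases had 4 of 11 at 1 or more, and the BLM complex 0 of 4.

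**Figure D5:**
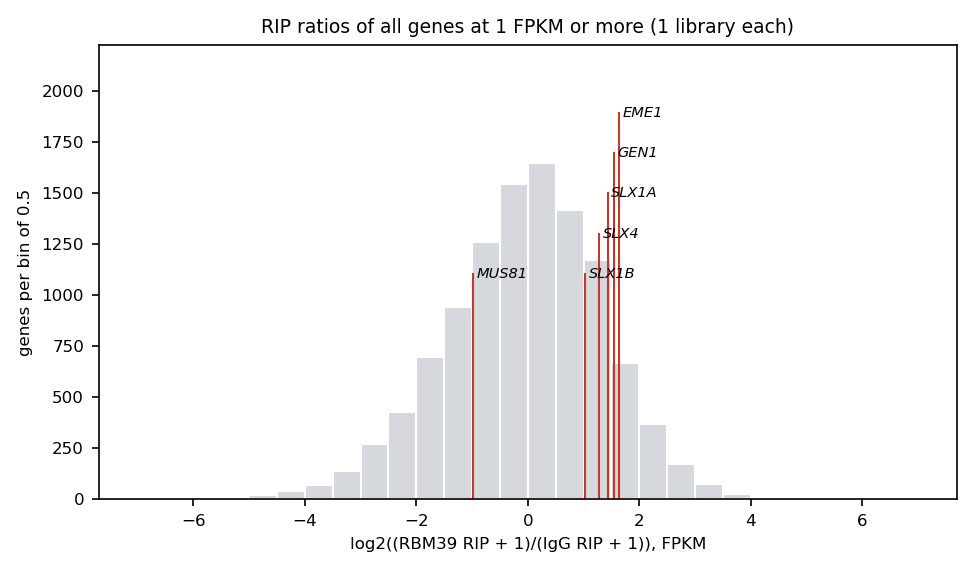
Histogram of the log2 ratio of the RBM39 RIP to the IgG RIP, as log2(FPKM + 1), for 10966 genes in bins of 0.5, with a red line at each nuclease gene whose height has no meaning. EME1, GEN1, SLX1A, SLX4 and SLX1B lie between 1.03 and 1.64 and MUS81 lies at -0.98.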

How the data were processed

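The deposited H929 and RIP tables hold FPKM (fragments per kilobase, scaled to library size), per the file names and headers. The authors also called the MM1S values FPKM, but each deposited column has the fixed total that defines TPM (transcripts scaled to length and to a fixed sum), so they were treated as TPM; the same test was kept. How reads were aligned and counted is not given in the sources used here. In the submitters' processing notes the builds are those of mouse (GRCm38, mm10) while the gene names are human, so coordinates come from RefSeq alone. The library kit was SMARTER mRNA-Seq, per the labels. Rows without a gene name were left out: 834 rows (0.436% to 0.459% of TPM) in the MM1S knockdown table and 473 rows (0.174% to 0.237%) in the indisulam table.

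For each comparison limma 3.58.1 (R 4.3.3; trend and robust options) was run on log2(value + 1), over genes that reached 1 in a number of libraries equal to the size of the smaller group. P-values were adjusted by Benjamini-Hochberg over all genes tested and called below 0.05, two-sided. The fit was tested on simulated data. "In" in the sample titles was taken to mean indisulam, after the series design. Promoter windows came from RefSeq (GRCh38.p14), matched by symbol for 6 of 6 genes. Named genes were the 6 members, up to 3 called genes per list by adjusted p and all genes of lists with 5 or fewer measured. The 5 genes most like SLX1B were also named. EME2, BOLA2B, BOLA2, NPIPB12 and SLX4IP, and in H929 SULT1A3, SULT1A4, NPIPB11 and NPIPB13, were added after their values were seen. Members and gene lists were chosen with earlier results of these data known. Alternatives were another pseudocount, filter, scaling, block or variance model, and leaving out each library. Some genes that the naming rule picks are not reported here; counts per list include them.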

Additional observations from a re-analysis of the deposited data

Results flagged for a closer look

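These genes were higher in the libraries labelled shRBM39 in H929 and lower in MM1S, or the reverse, with no overlap between the groups in either line; the difference between the lines was not tested, because the tables were normalized separately and the H929 labels go against RBM39 itself. Such opposite groups without overlap were common: of 9509 genes tested in both lines, 3195 (33.6%) showed them. Of 41 nuclease and junction genes tested in both lines, 8 (19.5%) did. Those named above are listed here with RBM39. Differences are on the log2(value + 1) scale, H929 before MM1S. RBM39 differed by 2.81 in H929 and -1.69 in MM1S. Among partners of junction processing, TOP3A differed by 0.32 in H929 and -1.11 in MM1S. FEN1 differed by 0.86 in H929 and -1.09 in MM1S. MRE11 differed by 0.98 in H929 and -1.03 in MM1S. HLTF differed by 0.32 in H929 and -1.17 in MM1S. RECQL differed by 0.19 in H929 and -0.99 in MM1S. The opposite order was seen for RECQL5, at -0.49 in H929 and 0.55 in MM1S, and for EME2, at -0.36 in H929 and 0.74 in MM1S.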

How the results depend on the processing

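Calls in the MM1S knockdown rest on 2 libraries a group: 1461 genes passed, against 0 with no filter, 255 with the replicate number as a block, 772 with crossed numbers (an alternative chosen after seeing the data) and 0 to 465 with a library left out. Where a group kept 1 library, its spread was taken from the other group. At an unadjusted p below 0.05, the fits with 0 calls held 2296 to 4966 genes. With indisulam 4024 passed, and 1849 to 9350 with a library left out, the most without indisulam replicate 3. The share of calls that were higher was 33.4% in H929, 38.5% in the MM1S knockdown and 28.3% with indisulam, and with median scaling it was 49.98% in H929 and 49.7% with indisulam, with quantile normalization 49.6% and 52.1%.

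In H929, SLX1A was at -0.61 with median scaling and -1.04 to -0.58 with a library left out. Under median scaling and quantile normalization SLX4 was at -0.14 and -0.12, MUS81 at -0.12 and -0.10 and GEN1 at -0.12 and -0.10. EME1 passed with the replicate block (-0.19, adjusted p = 0.0198), and ranged from -0.28 to -0.0896 with a library left out. The H929 SLX1 sum turned to 0.0597 with median scaling and ranged from -0.51 to 0.34 with a library left out. In the MM1S knockdown, EME1 (-1.64) and GEN1 (-0.87) did not pass with no filter (adjusted p 0.0945 and 0.124) or the replicate block (0.0549 and 0.0884), nor GEN1 without trend and robust (0.0544); with a library left out they ranged from -1.90 to -1.38 and -0.98 to -0.76. MUS81 there was at 0.0075 with quantile normalization and ranged from -0.17 to 0.0795. SLX1B there was at -3.88 with pseudocount 0.1. SLX1B-SULT1A4 there ranged from -0.12 to 0.26 with a library left out, around 0.07 with all. The SLX1 sum with read-through rows was at -0.62 after knockdown and -0.80 with indisulam. With indisulam, SLX4 passed with quantile normalization (-0.46, adjusted p = 0.0361). MUS81 did not pass with pseudocount 0.1 (-0.62), no filter or without trend and robust (-0.61 each), and ranged from -0.75 to -0.39. GEN1 was at 0.0309 with median scaling and ranged from -0.25 to 0.27, RBM39 from -0.0565 to 0.24 and EME2 from -0.15 to 0.34 with a library left out. The causes were not tested.

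RIP log2 ratios with pseudocount 0.1 and with the median ratio subtracted were 2.89 and 1.41 for SLX1A, 1.23 and 1.01 for SLX1B, 1.54 and 1.26 for SLX4, -1.02 and -1.002 for MUS81, 2.05 and 1.62 for EME1 and 1.83 and 1.52 for GEN1. Same-numbered libraries deviated with correlations of -0.000441 to 0.129 in H929, -0.142 in the MM1S knockdown and -0.148 to 0.137 with indisulam. With 2 libraries a group the deviations mirror each other, and 3 a group are also few. These values therefore cannot tell whether the numbers pair the libraries.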
